A study of Mus musculus with 15 samples.

Results

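Dusp1, Dusp2, Dusp6 and Pea15a encode proteins that restrain the ERK branch of MAP kinase signalling. They were followed at the RNA level in RAW 264.7, an immortalised mouse macrophage line, during culture with or without RANKL. RANKL, a cytokine of the TNF family, acts through the receptor RANK and drives macrophage precursors to become osteoclasts, the multinucleated cells that resorb bone. All 4 genes had a probe set annotated to that single symbol, out of 8251 genes so annotated, and together they had 5 of the 12422 probe sets tested. RANKL cells gave 7 arrays, of which day 1 had 1 and days 2, 4 and 5 had 2 apiece. The labels describe the RANKL cells of days 4 and 5 as multi-nuclear and the earlier ones as mononuclear. Control cells, cultured without RANKL and labelled mononuclear throughout, gave 8 arrays, of which days 1 and 5 had 1 apiece and days 2, 3 and 4 had 2 apiece. All cells were of that 1 line, grown in serum-containing medium, and the medium given on days 0 and 3, with or without RANKL, was serum-free per the labels. RANKL cells of day 3 were not analysed here. The list of genes was chosen on earlier results of these same arrays, in which Dusp6 and Pea15a were among the largest falls with RANKL at day 2. Which values led to Dusp1 and Dusp2 is not recorded, so the day 2 differences of all 4 genes are given below as a description with no test.

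ERK is switched on by phosphorylation of a threonine and a tyrosine in its activation loop, and dual-specificity phosphatases remove both phosphates. DUSP6 is a cytoplasmic phosphatase with a strong preference for ERK, and in many cell types its gene is itself switched on by ERK, which makes it a feedback brake. DUSP1 and DUSP2 are nuclear, are made rapidly after stimulation, and also act on the p38 and JNK kinases. PEA15, the product of Pea15a, is a small protein with a death effector domain that binds ERK and holds it in the cytoplasm. RANK and the receptor for M-CSF both activate ERK in osteoclast precursors. The values below are RNA signals and do not measure phosphatase or kinase activity.

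In the mouse assembly GRCm38.p6, Dusp1 lies on chromosome 17 (26505591 to 26508472, minus strand) and Dusp2 on chromosome 2 (127336159 to 127338377, plus strand). Dusp6 lies on chromosome 10 (99263231 to 99267489, plus strand) and Pea15a on chromosome 1 (172196728 to 172206804, minus strand). The RefSeq promoter windows of the 4 genes, from 250 bases before to 50 bases after the annotated start, are shown because the day 2 values of Dusp1 and Dusp2 lay above control and those of Dusp6 and Pea15a below it. They are printed 5′ to 3′ on the gene's own strand, and capitals mark matches on either strand to the motifs named after them. Their coordinates are chr17:26508423-26508722 for Dusp1, chr2:127335909-127336208 for Dusp2, chr10:99262981-99263280 for Dusp6 and chr1:172206755-172207054 for Pea15a.
Dusp1: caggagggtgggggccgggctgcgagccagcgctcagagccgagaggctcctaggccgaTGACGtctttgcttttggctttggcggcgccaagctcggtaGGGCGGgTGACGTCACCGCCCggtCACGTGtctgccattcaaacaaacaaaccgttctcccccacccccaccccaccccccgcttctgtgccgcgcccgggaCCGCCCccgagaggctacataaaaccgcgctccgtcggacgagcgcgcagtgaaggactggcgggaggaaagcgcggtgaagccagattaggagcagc
Dusp2: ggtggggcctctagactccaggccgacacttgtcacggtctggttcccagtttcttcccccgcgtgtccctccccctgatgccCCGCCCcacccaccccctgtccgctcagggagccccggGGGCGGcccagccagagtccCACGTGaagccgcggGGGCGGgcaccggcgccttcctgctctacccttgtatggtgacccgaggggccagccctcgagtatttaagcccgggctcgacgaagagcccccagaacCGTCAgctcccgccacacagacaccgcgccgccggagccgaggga
Dusp6: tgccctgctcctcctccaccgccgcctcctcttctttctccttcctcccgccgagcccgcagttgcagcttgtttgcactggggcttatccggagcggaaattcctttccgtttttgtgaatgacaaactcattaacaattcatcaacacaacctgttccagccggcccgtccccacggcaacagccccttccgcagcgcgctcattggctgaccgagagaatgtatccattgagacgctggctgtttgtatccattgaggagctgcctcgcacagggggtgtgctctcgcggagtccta
Pea15a: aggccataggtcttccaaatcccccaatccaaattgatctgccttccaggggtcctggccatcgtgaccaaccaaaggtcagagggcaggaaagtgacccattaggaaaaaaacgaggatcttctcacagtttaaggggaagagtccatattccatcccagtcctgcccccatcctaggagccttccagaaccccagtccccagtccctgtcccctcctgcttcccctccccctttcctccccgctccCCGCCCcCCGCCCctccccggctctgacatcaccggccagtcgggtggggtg

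The motifs searched were the cyclic AMP response element TGACGTCA, its core TGACG (which the full element contains), the AP-1 site TGANTCA, the E-box CACGTG, the GC box GGGCGG, the ETS site CCGGAA, the TATA core TATAAA and the CArG box bound by SRF. The Dusp1 window held 1 full cyclic AMP response element, a sequence found in 1.79% of the 32851 promoter windows of the same length. It held 3 such cores in all, 2 of them within that element, and the Dusp2 window held 1; 20.8% of all windows have one. Dusp1 and Dusp2 each held 1 E-box, which 7.15% of windows have. The GC box, present in 35.7% of windows, occurred 3 times in Dusp1, 3 times in Dusp2 and 2 times in Pea15a. In Dusp1 the cyclic AMP response element runs into the GC box after it, so their capitals join. The Dusp6 window held no match to any of these motifs, and the Pea15a window matched only the GC box. No window of the 4 matched the AP-1 site (7.81% of all windows), the ETS site (14.9%), the TATA core (13.6%) or the CArG box (1.63%). These are matches of letters. Binding was not measured, and a link between the motifs and the signals was not tested.

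Values are linear MAS5 signals of probe sets, scaled by the authors so that each array has the same 2% trimmed mean, 500. Array medians lay between 103 and 149. The Pearson correlation between replicate arrays, taken over probe sets that are not independent, was 0.975 to 0.984. The ratio of 3' to 5' beta-actin signal, a measure of RNA quality, ran from 1.02 to 1.39 on RANKL arrays and from 1.01 to 1.25 on control arrays. The labelled cell types were set against their markers. Each of 13 macrophage markers had a signal over 500 on at least 1 array, against 0 of 8 lymphocyte markers, 0 of 8 neutrophil and erythroid markers and 1 of 7 stromal and osteoblast markers. Over days 4 and 5, 1.83% of all probe sets had an adjusted p under 0.05 in limma, in either direction. Of 10 osteoclast markers on the array, 6 rose with RANKL over those days, led by Acp5, tartrate-resistant acid phosphatase (6.59 ± 0.29, adjusted p = 8.15e-07). Of the 13 macrophage markers, 4 fell over those days: Fcgr1 (-2.51), Fcgr2b (-1.55), Itgam (-1.16) and Adgre1 (-0.78). The summed signal of the macrophage markers was 43992 to 85929 on RANKL arrays and 63907 to 96533 on control arrays, and that of the osteoclast markers was 14494 to 48701 on RANKL arrays and 6532 to 14824 on control arrays. In bulk RNA, fewer cells of a type and less RNA per cell cannot be told apart. The labels do not say whether replicate arrays came from separate cultures, so p-values may reflect technical spread only. Differences are in log2(signal + 32), a scale that understates the change of dim genes. They are given with the standard error of a limma fit over all 15 arrays, and p-values are adjusted over all 12422 probe sets within a comparison with a threshold of 0.05.

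Dusp6 was lower with RANKL than without over days 4 and 5. In control cells it was higher at days 3 to 5 than on the 1 array of day 1. Probe set 93285_at had a signal of 178 in RANKL cells at day 1, 59.7 and 60.7 at day 2, 1057 and 344 at day 4, and 433 and 159 at day 5. In control cells it had 113 at day 1, 417 and 518 at day 2, 1797 and 1908 at day 3, 1485 and 1616 at day 4, and 1142 at day 5. With RANKL the gene was lowest at day 2 and never reached the control level of days 3 to 5, and the RANKL replicates of days 4 and 5 lay far apart. At day 2 the mean signal was 60.2 ± 0.714 in RANKL cells against 467 ± 71.3 in control cells (SD, n = 2 each), a log2 difference of -2.43 ± 0.45. Both RANKL signals of day 2 lay below the medians of their arrays (134 and 111). That difference was -2.927 with a constant of 1 added before the log and -1.818 with a constant of 100. The beta-actin ratio at day 2 was 1.25 and 1.39 on RANKL arrays against 1.17 and 1.25 on control arrays, and with this ratio as a covariate the day 2 differences were -2.24 for Dusp6, -2.66 for Pea15a, 0.81 for Dusp1 and 0.52 for Dusp2. In order of level, control days 3, 4 and 5 came first, then RANKL day 4, control day 2, RANKL day 5, RANKL day 1, control day 1 and RANKL day 2. Neighbours in that order differed by less than the pooled replicate SD (0.58, log2) except for control day 5 over RANKL day 4, control day 2 over RANKL day 5, and control day 1 over RANKL day 2.

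The comparison over days 4 and 5 sets RANKL cells against control cells of equal culture time. It leaves the day 2 arrays out of the means, though not out of the spread that gives the standard error and p-value. Dusp6 was lower with RANKL (-1.64 ± 0.36, limma adjusted p = 0.0443), with a 95% confidence interval from -2.43 to -0.85. All 4 RANKL arrays of days 4 and 5 (159 to 1057) lay below all 3 control arrays of those days (1142 to 1616). Such a separation downward was seen for 3.71% of all probe sets, and 1.83% of all probe sets passed the test in this comparison. The call is near the threshold and was lost in 14 of 23 alternative settings, while the difference stayed between -2.02 and -1.26. Control day 5 is 1 array, and without it the comparison falls back on day 4 (-1.30, adjusted p = 0.435). The beta-actin ratio was 1.18 and 1.34 on the RANKL arrays of day 4 and 1.08 and 1.02 on those of day 5, against 1.10 and 1.16 on the control arrays of day 4 and 1.01 on that of day 5. With this ratio as a covariate the Dusp6 difference was -1.47 ± 0.43 (adjusted p = 0.238). Of the 13 macrophage markers, 4 fell over the same days, as given above, and their part in the Dusp6 result was not tested.

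On single days the Dusp6 difference was -1.30 ± 0.45 at day 4 (adjusted p = 0.435) and -1.98 ± 0.56 at day 5 (adjusted p = 0.128), and neither passed. None of the 5 probe sets of the 4 genes passed at day 4 or at day 5, where 0.266% and 0.918% of all probe sets did. At an unadjusted p under 0.05 in limma, 2 of the 5 were past at day 4 (Dusp6 and Pea15a), where 8.13% of all probe sets were, and 1 at day 5 (Dusp6), where 14.2% were. Without RANKL day 4 replicate 2 the day 4 difference of Dusp6 was -0.54, and without replicate 1 it was -2.07. The day 5 value passed without RANKL day 5 replicate 1 (-2.62, adjusted p = 0.0295) and without RANKL day 4 replicate 2 (-1.98, adjusted p = 0.0497). The difference between the 2 days' effects was -0.67 ± 0.72 (adjusted p = 0.813). At day 1, 1 array against 1, Dusp6 had 178 with RANKL against 113 without (0.53 ± 0.64, adjusted p = 1.00). In limma 0% of probe sets passed at day 1, where the smallest adjusted p was 0.275 and 728 probe sets had an unadjusted p under 0.05. The other Dusp6 probe set, 161536_r_at, was dim on every array, at 3.9 to 29.9 on RANKL arrays and 5.91 to 49.3 on control arrays, below each array's median. It differed by -0.19 ± 0.20 over days 4 and 5 (adjusted p = 0.793), so the Dusp6 pattern rests on 1 probe set.

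**Figure D1:**
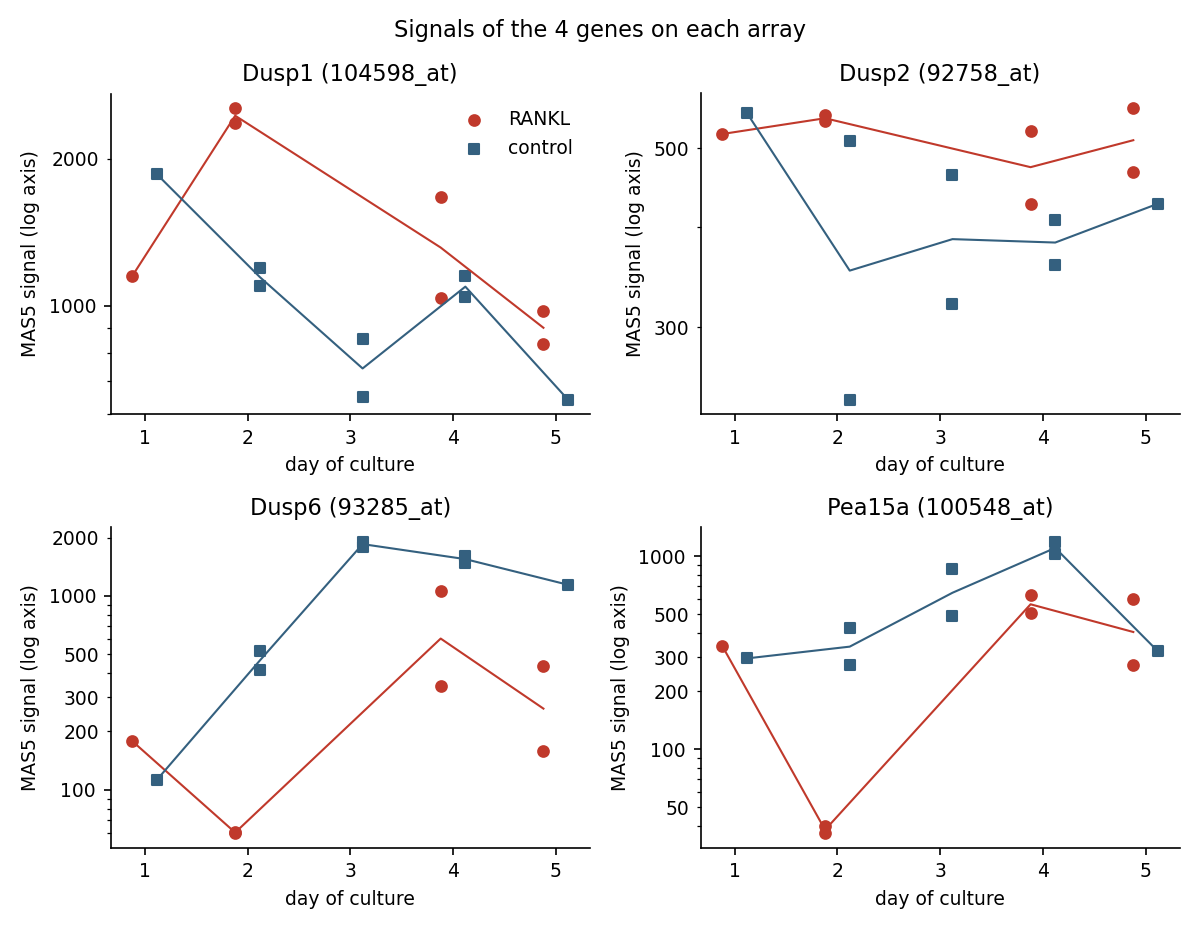
MAS5 signal (log axis, a separate range in each panel) of Dusp1, Dusp2, Dusp6 and Pea15a by day of culture, with 1 point per array and lines through the geometric mean of each day, RANKL in red circles and control in blue squares. Dusp6 at days 4 and 5 lies between 159 and 1057 with RANKL, below the 1142 to 1616 of control, and Pea15a is at 39.8 and 36.7 in RANKL cells at day 2.

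Pea15a (100548_at) was lowest in RANKL cells at day 2, as Dusp6 was, and no test between treatments was passed later. Its signal in RANKL cells was 343 at day 1, 39.8 and 36.7 at day 2, 628 and 508 at day 4, and 605 and 272 at day 5. In control cells it was 296 at day 1, 273 and 425 at day 2, 859 and 489 at day 3, 1026 and 1194 at day 4, and 322 at day 5. The day 2 mean was 38.2 ± 2.17 in RANKL cells against 349 ± 107 in control cells (SD, n = 2 each), a log2 difference of -2.41 ± 0.36. Both RANKL signals of day 2 lay below the medians of their arrays (134 and 111). The size of the day 2 difference depended on the constant added before the log. It was -3.125 with a constant of 1 and -1.68 with a constant of 100. RANKL day 2 stood apart at the bottom of the order, 2.22 (log2) below the next group, control day 1, against a pooled replicate SD of 0.43. Control day 4 stood at the top, 0.74 above control day 3. Of the groups between, only RANKL day 4 stood off its lower neighbour, RANKL day 5, by slightly more than that SD (0.44).

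Over days 4 and 5 the Pea15a difference was -0.31 ± 0.28 (adjusted p = 0.753, 95% confidence interval -0.93 to 0.31). It was -0.93 without control day 5 replicate 1, which leaves day 4 alone. Of the RANKL arrays of day 5, omitting replicate 1 gave -0.58 and omitting replicate 2 gave -0.04. The 2 days had opposite signs. At day 4 both RANKL arrays lay below both control arrays (-0.93 ± 0.36, adjusted p = 0.498). At day 5 the value was 0.31 ± 0.44 (adjusted p = 0.815), and it was -0.22 without RANKL day 5 replicate 1. The day 5 minus day 4 difference was 1.25 ± 0.56 (adjusted p = 0.501). The control array of day 5 had a signal 3.45-fold under the day 4 control mean, and it has no replicate. At day 1 the signals were 343 with RANKL and 296 without (0.20 ± 0.50, adjusted p = 1.00).

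Dusp1 (104598_at) lay above control at day 2. Its signal in RANKL cells was 1151 at day 1, 2363 and 2539 at day 2, 1038 and 1665 at day 4, and 973 and 833 at day 5. In control cells it was 1856 at day 1, 1098 and 1191 at day 2, 852 and 648 at day 3, 1149 and 1040 at day 4, and 641 at day 5. At day 2 the mean was 2451 ± 124 in RANKL cells against 1145 ± 66.2 in control cells (SD, n = 2 each), 2.14-fold higher, or 1.08 ± 0.22 in log2. RANKL day 2 was the highest group, 0.39 above control day 1, and control day 5 the lowest, with a pooled replicate SD of 0.24. RANKL day 4, RANKL day 1, control day 2 and control day 4 followed each other by steps under that SD, as did control day 3 and control day 5. Over days 4 and 5 the difference was 0.37 ± 0.17 (adjusted p = 0.403, 95% confidence interval -0.01 to 0.75) and the arrays overlapped. The difference was 0.26 ± 0.22 at day 4 (adjusted p = 0.859) and 0.47 ± 0.27 at day 5 (adjusted p = 0.471). It was -0.67 ± 0.31 at day 1 (adjusted p = 0.847). The day 4 value was -0.08 with the beta-actin ratio as a covariate and -0.07 without RANKL day 4 replicate 2, the array with the highest ratio of that day.

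Dusp2 (92758_at) had the narrowest range of the 4 genes, 244 to 561 over all arrays. It had signals of 521 at day 1, 550 and 540 at day 2, 427 and 526 at day 4, and 467 and 561 at day 5 in RANKL cells. In control cells it had 553 at day 1, 244 and 510 at day 2, 321 and 464 at day 3, 408 and 358 at day 4, and 427 at day 5. All 9 groups, placed in order, stood less than the pooled replicate SD (0.34) from their neighbours. At day 2 the log2 difference was 0.58 ± 0.29. It was 0.09 without control day 2 replicate 1, the low control array, and 1.06 without control day 2 replicate 2. Over days 4 and 5 it was 0.27 ± 0.23 (adjusted p = 0.733, 95% confidence interval -0.24 to 0.77), and the groups met at 427, the lowest RANKL array and the highest control array. On single days it was -0.08 ± 0.41 at day 1 (adjusted p = 1.00), 0.29 ± 0.29 at day 4 (adjusted p = 0.904) and 0.24 ± 0.36 at day 5 (adjusted p = 0.829). The interval over days 4 and 5 allows a difference in either direction.

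At day 2, 0.853% of all probe sets (106) passed the same test. Leaving out a single RANKL array of day 2 brought the count to 5 (replicate 1) or 3 (replicate 2), and leaving out a control array of day 2 brought it to 28 (replicate 1) or 2 (replicate 2). Nothing is read from this for the 4 genes, since that contrast led to their choice. Over days 4 and 5, where 5.26% of all probe sets had every RANKL array above every control array, none of the 5 probe sets did.

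**Figure D2:**
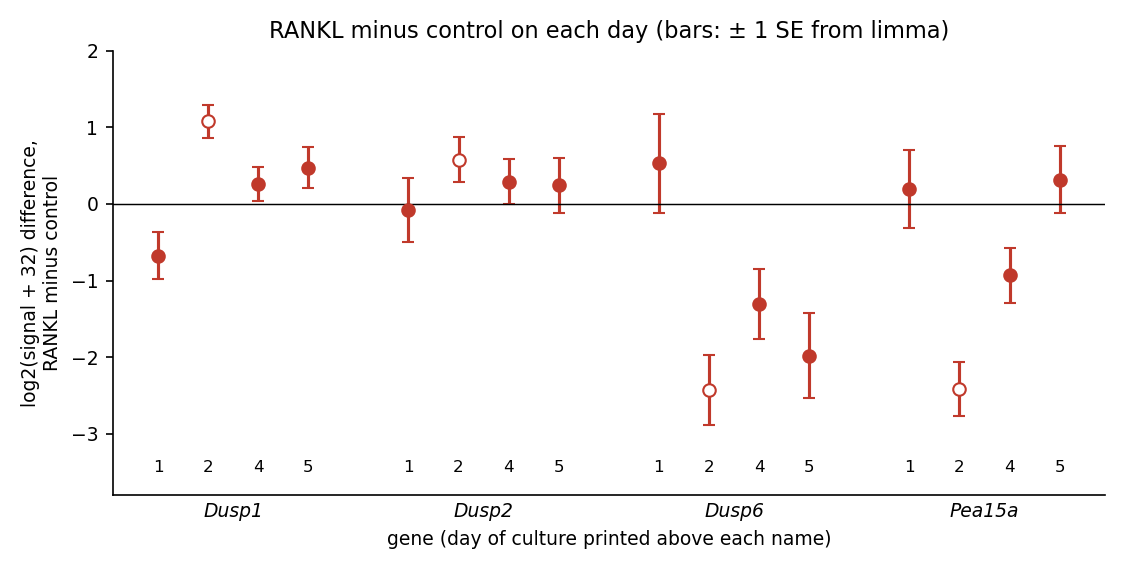
Log2 difference of RANKL minus control at days 1, 2, 4 and 5 for each gene, with bars of 1 standard error from limma and open points for day 2, the contrast that led to the choice of genes. Dusp6 is below 0 at days 2, 4 and 5 (-2.43, -1.30 and -1.98), Pea15a is at -2.41 at day 2 and between -0.93 and 0.31 on the other days, and Dusp1 reaches 1.08 at day 2.

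**Figure D3:**
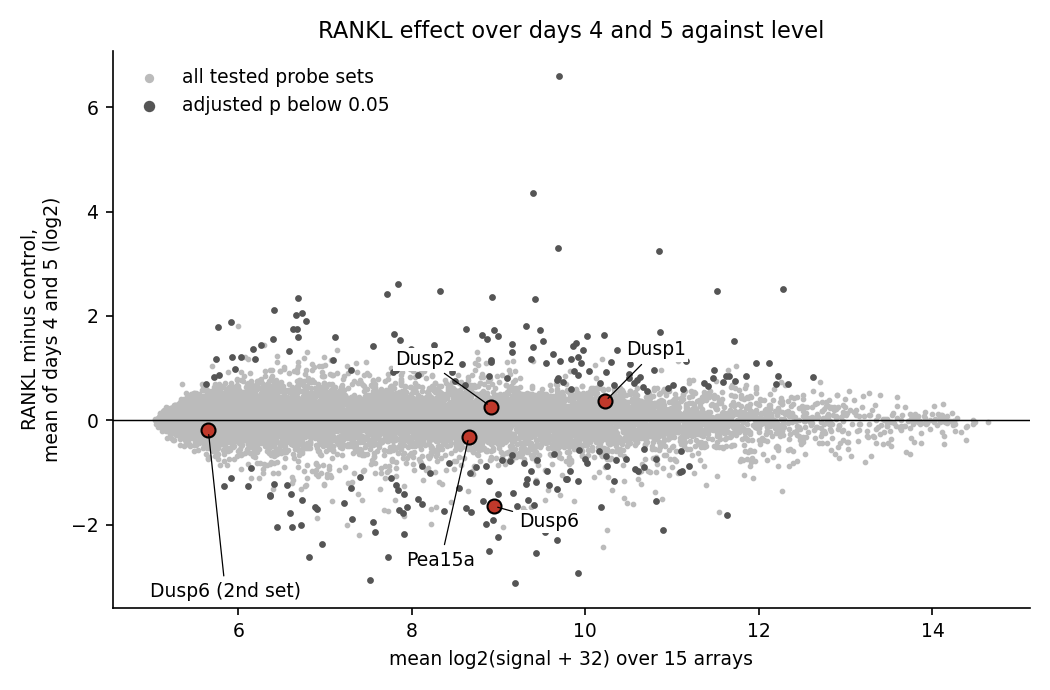
Log2 difference of RANKL minus control over days 4 and 5 against mean log2(signal + 32) for the 12422 tested probe sets (grey), those with an adjusted p below 0.05 (dark) and the 5 probe sets of the 4 genes (red). Dusp6 lies at -1.64 among the dark points, and the other 4 lie between -0.31 and 0.37 within the grey band.

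Culture time was compared within each treatment, as the mean of days 4 and 5 minus the mean of days 1 and 2. That baseline holds the day 2 arrays of the contrast that led to the choice of genes, so these differences are given for the 4 genes as a description. The tests leave the day 2 arrays out of the means, though not out of the spread, and take day 1, 1 array in each treatment, as the baseline. Among all probe sets, 6.7% passed for days 4 and 5 minus day 1 in RANKL cells, and 7.95% for days 3 to 5 minus day 1 in control cells. With days 1 and 2 as the baseline, 5 of 13 macrophage markers rose in RANKL cells and 7 of 13 in control cells. In that comparison 14.8% of all probe sets passed in RANKL cells and 10.9% in control cells, in either direction. The part of these markers in the culture-time results was not tested.

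Dusp6 rose with culture time in control cells when day 1 was the baseline (3.38 ± 0.50, adjusted p = 0.00392). Its mean signal there was 16.4-fold higher at day 3 than at day 1, and 10.1-fold higher at day 5 than at day 1. In RANKL cells days 4 and 5 minus day 1 gave 1.06 ± 0.51 (adjusted p = 0.249), which did not pass. The RANKL effect over days 4 and 5 minus that at day 1 was -2.17 ± 0.74 for Dusp6. It did not pass, so the time courses of the treatments were not shown to differ. With days 1 and 2 as the baseline, the Dusp6 difference was 1.65 in RANKL cells, where the day 4 mean was 11.6-fold over the day 2 mean, and 2.34 in control cells. That control difference was 1.46 without the day 1 array and 2.04 with the beta-actin ratio as a covariate. The Dusp6 test against day 1 rests on the 1 control array of that day and was not repeated with that covariate.

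Dusp1 fell in control cells against day 1 (-1.17 ± 0.24, adjusted p = 0.0141), and its difference in RANKL cells was -0.08 ± 0.25 (adjusted p = 0.901). The RANKL effect on Dusp1 over days 4 and 5 minus that at day 1 was 1.04 ± 0.36 and did not pass. Against days 1 and 2 the Dusp1 difference was -0.61 in RANKL cells and -0.78 in control cells. That control value was -0.41 without the day 5 array, -0.43 without the day 1 array and -0.36 with the beta-actin ratio as a covariate. The Dusp1 test against day 1 was not repeated in these ways. Pea15a did not pass against day 1 in RANKL cells (0.45 ± 0.40, adjusted p = 0.577) or in control cells (0.99 ± 0.39, adjusted p = 0.165). Against days 1 and 2 the Pea15a difference was 1.66 in RANKL cells, where the day 4 mean was 14.9-fold over the day 2 mean, and 0.86 in control cells. That control value was 1.70 without the day 5 array. Dusp2 did not pass against day 1 in RANKL cells (-0.08 ± 0.33, adjusted p = 0.929) or in control cells (-0.44 ± 0.32, adjusted p = 0.514).

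Across the 15 arrays, Dusp6 and Pea15a had a Pearson correlation of 0.82, Dusp1 and Dusp2 one of 0.40, and Dusp1 and Dusp6 one of -0.76. These are descriptions over arrays that share day and treatment. The arrays include those of day 2, on which Dusp6 and Pea15a were chosen for falls with RANKL, so part of their correlation follows from the choice. The 3 genes most like each member were sought among 4285 genes with a mean signal of at least 200. Those most like Dusp6 were Rassf5, which encodes a Ras-binding protein (r = 0.974), Ikbke, the kinase IKK epsilon (r = 0.970), and Cybb, the catalytic subunit of the phagocyte NADPH oxidase (r = 0.965). Since they were chosen for their likeness to Dusp6 on these arrays, their differences over days 4 and 5 are a description: -0.55 for Rassf5, -1.51 for Ikbke and -1.98 for Cybb. Cybb ranged from 126 to 4196 over the arrays and Ikbke from 41.1 to 1109.

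The genes most like Pea15a were Tap2, a peptide transporter of antigen presentation (r = 0.907), Siah1a, a ubiquitin ligase (r = 0.907), and Map3k1, a kinase upstream of JNK (r = 0.890). Their differences over days 4 and 5 were -0.40, -0.05 and -0.28. Those most like Dusp1 were Pebp1, the Raf kinase inhibitor protein (r = 0.884, on a probe set whose _f suffix marks possible matches to related sequences), Ybx1, an RNA-binding protein (r = 0.871), and Pabpc4, a poly(A)-binding protein (r = 0.870). Those most like Dusp2 were Acsf3, Fbxw5 and Pstk, at r = 0.813, 0.750 and 0.743.

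**Figure D4:**
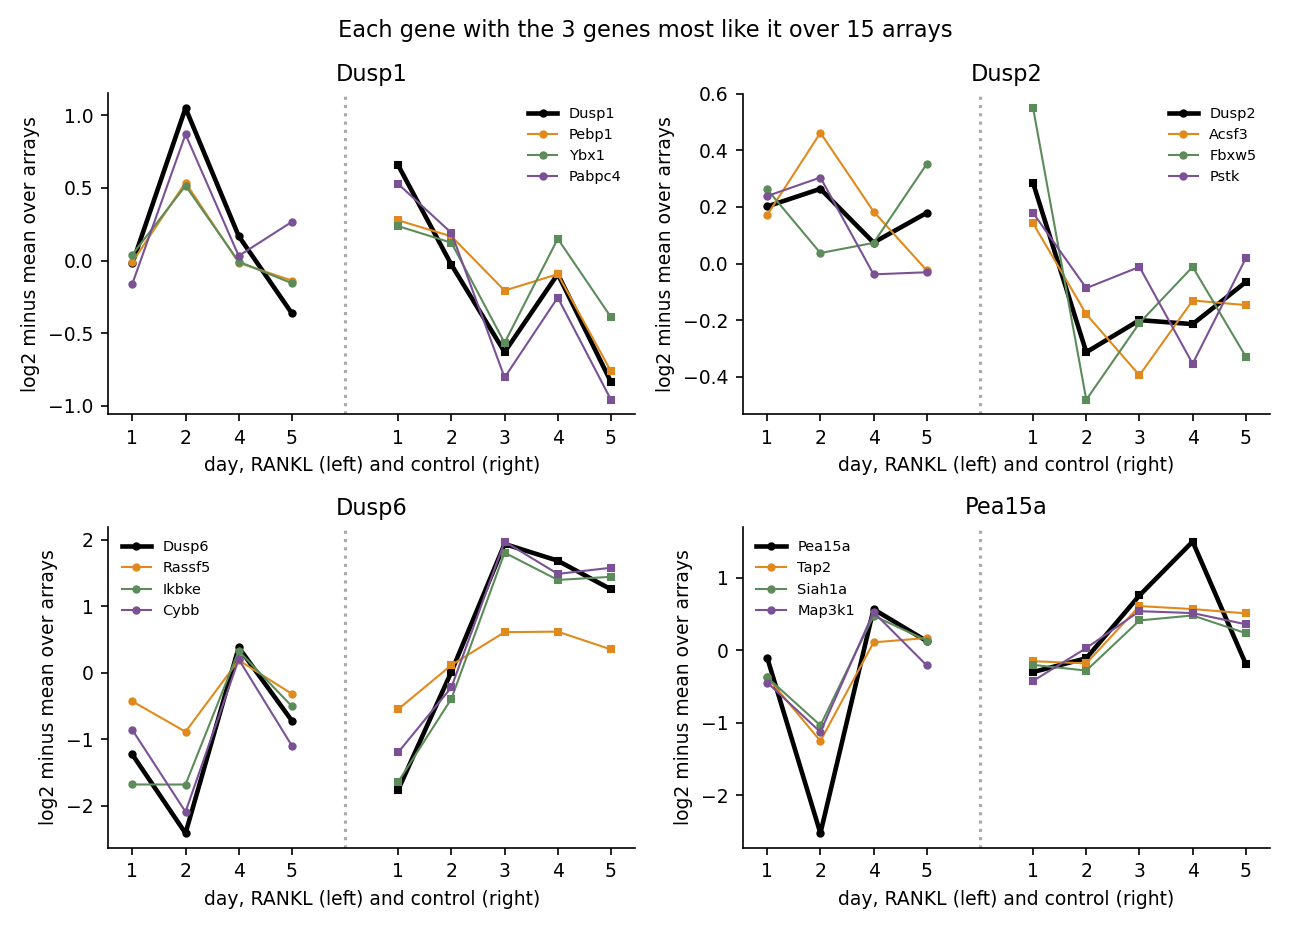
Group means of log2(signal + 32), centred on each gene's mean over 15 arrays, for each member (black) and the 3 genes most like it, with RANKL days on the left and control days on the right of each panel. Ikbke and Cybb follow Dusp6 with correlations of 0.970 and 0.965, and Rassf5 does so at 0.974 over a smaller range.

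The other genes of the pathway are given by list. Of 23 other dual-specificity phosphatases, 7 were on the array, and 0 passed in limma over days 4 and 5 (median -0.01, against 0.05 over all probe sets). At an unadjusted p under 0.05 over those days were 1 of these 7 and 13.1% of all probe sets. The largest differences over days 4 and 5 were those of Dusp16, a JNK and p38 phosphatase (-0.58 ± 0.30, adjusted p = 0.458), and Dusp11, a phosphatase of RNA (-0.36 ± 0.13, adjusted p = 0.244). With culture time (days 4 and 5 minus days 1 and 2), 1 of the 7 rose and 1 fell in each treatment. Of all probe sets, 14.8% passed in RANKL cells and 10.9% in control cells, in either direction. Dusp19 fell in RANKL cells (-1.36, limma adjusted p = 0.00366) and in control cells (-1.25, adjusted p = 0.0112). Dusp16 rose in RANKL cells (1.11, adjusted p = 0.0287) and Dusp11 in control cells (0.64, adjusted p = 0.0168). These culture-time values were singled out after they were seen. Of 22 other brakes of Ras and ERK, 15 were on the array and 0 passed in limma over days 4 and 5 (median 0.16). At an unadjusted p under 0.05 were 4 of the 15, against 13.1% of all probe sets. The largest differences over days 4 and 5 were those of Rasa3, a Ras GTPase-activating protein (0.59 ± 0.27, adjusted p = 0.370), and Ptpre, a tyrosine phosphatase (0.59 ± 0.23, adjusted p = 0.275). Spry4, a feedback inhibitor of receptor signalling, differed by 0.09 ± 0.18 (adjusted p = 0.913, named after its value was seen).

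Of 29 genes of the ERK cascade itself, 21 were on the array, and 0 passed in limma over days 4 and 5 (median -0.04) or at day 2. At an unadjusted p under 0.05 were 5 of the 21 over days 4 and 5, against 13.1% of all probe sets, and 3 of the 21 at day 2, against 10.1%. The largest differences over days 4 and 5 were those of Mapk7, the kinase ERK5 (-0.89 ± 0.32, adjusted p = 0.239), and Rras, a Ras relative (-0.67 ± 0.23, adjusted p = 0.215). With culture time (days 4 and 5 minus days 1 and 2), 6 of the 21 rose in RANKL cells and 4 in control cells, where 14.8% and 10.9% of all probe sets passed in either direction. Of 33 genes listed as ERK-induced transcripts, 28 were on the array. The list also holds the factors Elk1, Elk3, Elk4 and Srf, and induction of its genes by ERK was not tested. Over days 4 and 5, where 1.83% of all probe sets passed in either direction, 3 of the 28 rose and 0 fell, with a median of -0.12. Those that rose were the transcription factor genes Myc (2.61 ± 0.42, adjusted p = 0.009), Egr2 (1.80 ± 0.17, adjusted p = 0.000305) and Fos (1.10 ± 0.19, adjusted p = 0.0143). At an unadjusted p under 0.05 in limma over days 4 and 5 were 9 of the 28 and 13.1% of all probe sets. At day 2 these were 10 of the 28 and 10.1%. At day 2, where 0.853% of all probe sets passed after adjustment, 1 of the 28 did. Egr1, an early-response transcription factor, fell by 1.61 ± 0.27 (adjusted p = 0.0257). Egr1 was named after its value was seen, and over days 4 and 5 it differed by -0.77 ± 0.22 (adjusted p = 0.114).

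Of 28 genes of the p38 and JNK cascades, 24 were on the array. Over days 4 and 5, where 1.83% of all probe sets passed in either direction, 1 rose and 1 fell (median -0.07). Map2k3, the kinase MKK3 that activates p38, rose by 1.14 ± 0.14 (adjusted p = 0.00184), and Mef2c, a transcription factor target of p38, fell by 1.66 ± 0.30 (adjusted p = 0.0171). At an unadjusted p under 0.05 in limma over days 4 and 5 were 3 of the 24 and 13.1% of all probe sets. At day 2 these were 6 of the 24 and 10.1%. At day 2, where 0.853% of all probe sets passed after adjustment, 2 of the 24 fell, Mef2c and Map3k1. Map3k1 was named after its value was seen (-1.16 ± 0.20, adjusted p = 0.0297). When 1 day 2 array was omitted, 2 to 28 day 2 calls over all probe sets were left. Of 14 genes of the death effector domain pathway, some of whose proteins PEA15 also binds, 10 were on the array and 0 passed in limma over days 4 and 5 (median -0.09). At an unadjusted p under 0.05 were 2 of the 10, against 13.1% of all probe sets. The largest differences over days 4 and 5 were those of the death receptor gene Fas (-0.57 ± 0.26, adjusted p = 0.386) and the adaptor gene Tradd (-0.54 ± 0.21, adjusted p = 0.285).

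**Figure D5:**
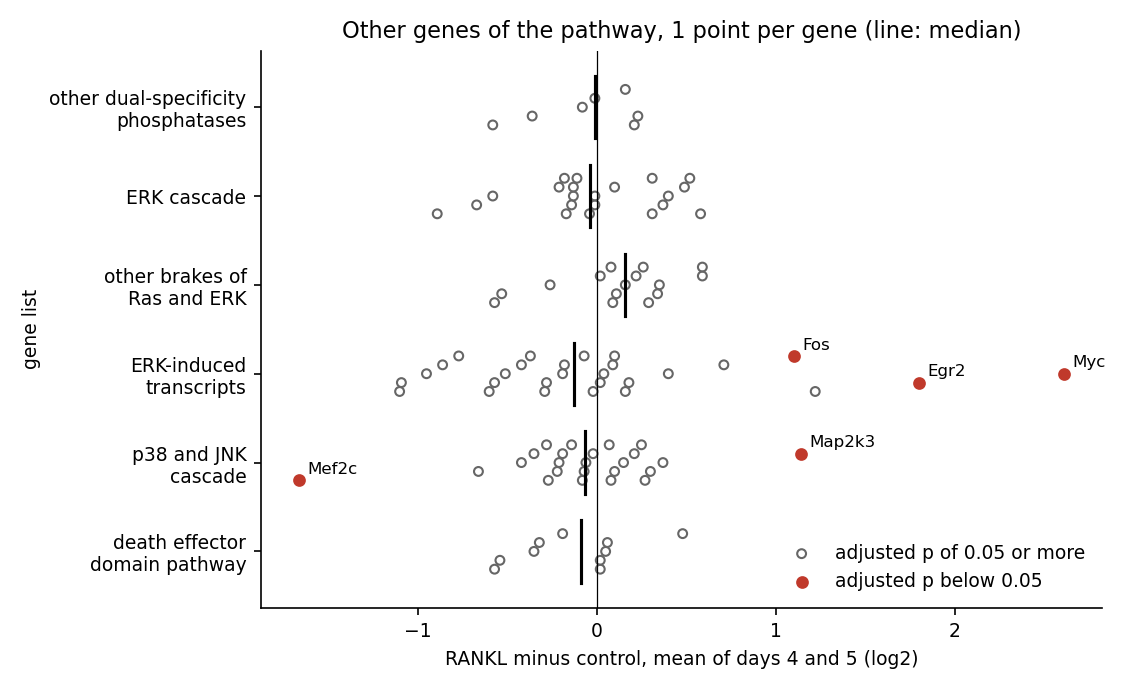
Log2 difference of RANKL minus control over days 4 and 5 for the other genes of 6 pathway lists, 1 point per gene, filled red where the adjusted p is below 0.05, with a line at each list's median. Myc, Egr2 and Fos (ERK-induced transcripts) and Map2k3 lie to the right, Mef2c lies to the left at -1.66, and the other lists have no filled point.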

How the data were processed

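RNA of RAW 264.7 cells was hybridised to 15 one-colour Affymetrix arrays. The deposited values are linear probe set signal intensities made with MAS5, per the submitters' processing notes, whose version is not given in the sources used here. The 2% trimmed mean was 500 on each array. Genes were named from the platform annotation, which gives 10833 probe sets 1 symbol, 396 several and 1193 none. The 66 manufacturer controls were left out. A gene with several probe sets is represented by the one brightest on average.

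A limma 3.58.1 model in R 4.3.3 with 1 mean per group (9 groups, 6 residual and 5.39 prior degrees of freedom, intensity trend) was fitted to log2(signal + 32) of 12422 probe sets with no filter. The 3 single-array groups take their spread from the rest. All tests had both sides, with Benjamini-Hochberg adjustment within each comparison. For culture time, the members were tested with day 1 as the baseline, since the day 2 arrays led to their choice. The procedure was tested on simulated data with known changes over days 4 and 5. It recovered 61 of 100 log2 changes of 1 and 96 of 100 log2 changes of 2, so smaller changes can be missed. The members and lists were chosen with earlier results of these data known.

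The rule for naming takes the 4 genes, the 3 genes with the highest Pearson correlation to each, and from each pathway list up to 4 genes past the threshold over days 4 and 5, or else the 2 with the largest change. Alternatives were other pseudocounts, quantile normalization, the upper 50% of probe sets, no intensity trend, a replicate block, the beta-actin ratio as a covariate, each array left out and other definitions of a comparison. Promoter windows come from RefSeq on GRCm38.p6.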

Additional observations from a re-analysis of the deposited data

How the results depend on the processing

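The number of arrays, 1 or 2 a group, limits precision, and signals under about the 32 added before the log have little weight. For Dusp6 over days 4 and 5 (-1.64), the call was lost with no intensity trend (-1.64, adjusted p = 0.0747), the replicate block (-1.54, adjusted p = 0.0655) and the beta-actin covariate (-1.47), and leaving out 1 array gave -2.02 to -1.26. Leaving out 1 array gave -2.07 to -0.54 for Dusp6 at day 4, -2.62 to -1.34 for Dusp6 at day 5, -0.93 to -0.04 for Pea15a over days 4 and 5, -0.22 to 0.85 for Pea15a at day 5 and -0.072 to 0.59 for Dusp1 at day 4, which was -0.084 with the beta-actin covariate. Dusp2 at day 1 was 0.0084 after quantile normalization. For culture time in RANKL cells, Dusp1 was -0.61 with no intensity trend, -0.62 with the replicate block, -0.34 with the beta-actin covariate and -0.077 against day 1 alone, and ran from -1.15 to -0.45 over single arrays. Dusp6 was 1.46 with that covariate and 1.06 against day 1 alone, and Pea15a was 0.45 against day 1 alone. For culture time in control cells, Pea15a was 0.86 in the upper 50% of probe sets. The beta-actin covariate gave -0.36 for Dusp1 and 2.04 for Dusp6. Over single arrays Pea15a ran from 0.71 to 1.70, Dusp1 from -0.81 to -0.41, Dusp2 from -0.37 to 0.17 and Dusp6 from 1.46 to 2.56. The cause of these changes was not tested.

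The count of probe sets past the threshold over days 4 and 5 (227) was 140 with the replicate block, 74 with the beta-actin covariate and 403 with control days 3 to 5 as the reference. It was 33 without control day 5 replicate 1, where day 4 alone is left, and 405 without RANKL day 5 replicate 1, with all other arrays between. The count at day 4 (33) was 12 with the beta-actin covariate and ran from 9 to 54 over single arrays. At day 2 (106) it was 68 with no intensity trend, 34 with the beta-actin covariate and 2 to 147 over single arrays. At day 5 (114) it was 64 with the replicate block, 244 in the upper 50% of probe sets and 52 to 355 over single arrays. For culture time against days 1 and 2 it was 1086 with the beta-actin covariate, 832 against day 1 alone and 1146 to 1972 over single arrays in RANKL cells (1839), and 169 with the beta-actin covariate and 700 to 1410 over single arrays in control cells (1348). Little pairing by replicate number was seen: over 15 pairs of groups the correlation of replicate differences ran from -0.17 to 0.12. These values do not settle whether arrays of the same replicate number were handled together.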
